A study of Mus musculus with 7 samples.

Results

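Contractile smooth muscle cells were sought among the CD45-negative, CD24-negative cells of mouse mesenteric lymph nodes (mLNs, the nodes that drain the gut). A cell was counted when it held no UMI of Pecam1, at least 3 UMIs of Myh11, Actg2 and Cnn1 together, and fewer than 10 UMIs of Ccl19, where a UMI stands for 1 captured RNA molecule. The members were thus chosen by their UMIs of these genes and nothing else. The rule found 255 cells among the 13197 kept cells, out of 17692 cells in all. By age, 191 of the members were from D0, 29 from D10, 14 from D24, 16 from D56 and 5 from D300. They were set against 831 Rgs5 cells, which carried no Pecam1 UMI, at least 2 UMIs of the pericyte gene Rgs5 and fewer than 3 UMIs of Myh11, Actg2 and Cnn1.

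All mice were BALB/c animals under specific pathogen free conditions, and the labels separate the groups by age, at days 0, 10, 24, 56 and 300 after birth. Droplet-based single-cell RNA-seq (10x Genomics) gave, by the labels, 2 libraries for D56, 2 for D300 and 1 for each younger age. The legends of the study count a single replicate at D300, and the counts cannot settle this. The cell names do not separate the libraries of one age, so each age was treated as 1 sample and no test was possible between single ages. Ddx3y, a gene on the Y chromosome, stood at 121 CPM in the members at D10 and had no count in them at the other ages, while Xist stood at 106 CPM at D10 and between 870 and 1046 CPM at the other ages, so D10 differs from them in these sex-linked transcripts as well as in age.

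Smooth muscle cells shorten when calcium-bound calmodulin activates myosin light chain kinase (Mylk), which phosphorylates the regulatory light chain (Myl9) and lets smooth muscle myosin (Myh11) pull on actin filaments (Acta2, Actg2). In lymph nodes such cells are known around arterioles and in the walls of collecting lymphatic vessels. Pericytes, which wrap capillaries and often carry Rgs5, share part of this equipment. Many contractile genes carry CArG boxes, short DNA elements bound by serum response factor.

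The CArG box was searched in the 250 bases before the annotated start of each gene (RefSeq promoters, GRCm38.p6), and 4 contractile genes are printed because their transcripts carry the results below. The box is in capitals, read 5′ to 3′ on the strand of the gene.
Myl9: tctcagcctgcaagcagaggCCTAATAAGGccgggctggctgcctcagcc
Myl6: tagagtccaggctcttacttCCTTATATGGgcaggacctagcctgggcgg
Acta2: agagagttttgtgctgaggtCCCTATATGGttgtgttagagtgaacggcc
Lmod1: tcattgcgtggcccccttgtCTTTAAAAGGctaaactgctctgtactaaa
Coordinates are those of the printed stretch, which holds 20 bases on either side of the box. The box of Myl9 (stretch chr2:156775283-156775332, plus strand) began 161 bases before the start and matched in full. That of Myl6 (stretch chr10:128493030-128493079, minus strand) began 50 bases before the start and also matched in full. Those of Acta2 (stretch chr19:34255428-34255477, minus strand) and Lmod1 (stretch chr1:135324604-135324653, plus strand) began 84 and 189 bases before the start and held 1 mismatch each. Acta2, Lmod1 and Myl9 each held a further box with 1 mismatch that is not printed, at 34, 164 and 99 bases before the start. A full match stood in 4 of 22 promoter windows (18.2%) of the filament genes that define the rule or were higher in contractile cells, which are those of Filip1l, Myl6, Myl9 and Vcl, and in 1.47% of all 32851 windows. With 1 mismatch allowed the shares were 45.5% and 18.6%. Over the whole filament list, without choice by the class comparison, the shares were 11.8% (4 of 34 windows) and 35.3%. The motif is a palindrome, so both strands give the same matches, and 18 of the 22 genes had an entry. Myh11, Actg2 and Tagln had none. A match is a description of the letters and no measured binding.

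The label was checked with Acta2 and Tagln, which the rule did not use although they may be coupled to the genes it used. Acta2, the main actin of vascular smooth muscle, had a UMI in 184 of 191 members at D0, in 29 of 29 members at D10, in 14 of 14 at D24, in 13 of 16 members at D56 and in 2 of 5 at D300. Tagln, an actin-binding protein of smooth muscle, had one in 187, 29, 14, 13 and 2 of these cells. In Rgs5 cells the share with an Acta2 UMI was 69.5% at D0 and 44.2% at D56, and in endothelial cells (at least 2 Pecam1 UMIs) it was 26.7% and 10.7%. For Tagln it was 58.1% at D0, 75.4% at D24 and 72.3% at D56 in Rgs5 cells, so at D56 the share of members, 81.3% (exact 95% interval 54.4 to 96.0), was not separated from it. From D0 to D56 most members carried Acta2 and Tagln. At D300 the data go largely against the label, since 3 of 5 members held neither. Further smooth muscle markers were mixed. Over all ages Lmod1 had a UMI in 45.9% of members and 5.29% of Rgs5 cells. Mylk had one in 65.5% and 52.5%, and Kcnmb1 in 3.53% and 0.722%. Des (60.4% against 79.4%) and Synpo2 (19.2% against 24.9%) went the other way. The mix of ages differed between both classes.

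The rule genes were not evenly spread, which is given as a description since they chose the cells. Actg2, the actin of enteric smooth muscle, reached 3 UMIs in 158 of 191 members at D0 and 22 of 29 at D10, but in 6 of 14 at D24 and 5 of 16 at D56. Myh11 reached 3 UMIs in 41, 14, 9 and 12 of these members. Actg2 thus carried most D0 cells across the limit, and Myh11 most D56 cells. UMIs of Myh11, Actg2 and Cnn1 occurred together in 91 of the 255 cells, and 85 cells reached the limit with only 1 of them.

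The limit cut through a continuous range. The 147 cells just outside it, with 2 UMIs of the rule genes, held Acta2 at 950 CPM (counts scaled to the same total of UMIs) in their summed counts, and the 51 cells just inside, with 3 UMIs, at 1785 CPM. Cells with 4 to 9 UMIs held 3385 CPM and the 105 cells with 10 or more 9532 CPM, against 119 CPM in cells with none. Lmod1, which nucleates actin filaments, stood at 32.4, 41.0, 61.7 and 214 CPM from 2 UMIs upward. Ccl21a, a chemokine of reticular cells, stood at 9105, 4269, 1434 and 282 CPM over the same steps. These sums pool the ages, and their mix differed, with 48 of 147 cells from D56 or D300 at 2 UMIs and 4 of 105 at 10 or more. Among members of D0 alone, those with 10 or more UMIs and those with fewer held Acta2 at 8540 and 2210 CPM and Ccl21a at 77.3 and 223 CPM. At D10 the values were 16092 and 7106 CPM for Acta2 and 469 and 1354 CPM for Ccl21a. The direction within both ages was that of the pooled sums, with a smaller difference in Ccl21a.

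**Figure D1:**
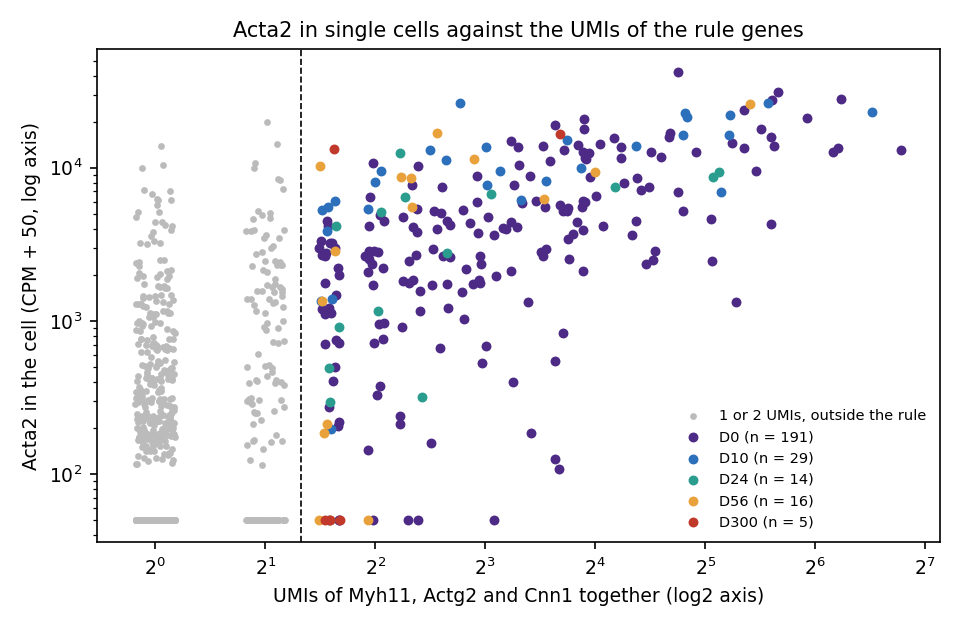
Each point is a cell, with the UMIs of Myh11, Actg2 and Cnn1 together on the x axis (log2, jittered) and Acta2 on the y axis (CPM plus 50, log scale); the dashed line is the limit of the rule. Grey cells fall outside it, members are coloured by age, and the 3 members at D300 without Acta2 lie on the lowest row.

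The share of contractile cells among kept cells was highest at birth. It was 5.14% at D0, with an exact 95% interval of 4.46 to 5.90. The D10 share was 1.47% (0.990 to 2.11) and the D24 share 0.814% (0.446 to 1.36). The share then reached 0.435% at D56 (interval 0.249 to 0.705) and 0.236% at D300 (interval 0.0768 to 0.551). The interval at D0 lay above all others, and that at D10 above those at D56 and D300, while those of D10 and D24, of D24 and D56, of D24 and D300, and of D56 and D300 overlapped. Among Pecam1-negative cells the shares were 6.07%, 2.01%, 1.36%, 0.622% and 0.373%. Intervals cover counting error only, and the spread between animals of one age is unknown. The study found putative fibroblasts of adjacent tissue over-represented at birth and excluded them, whereas the kept cells here were not freed of them. The adjacent fibroblast list summed to 3209 CPM in members at D0 and 50.4 CPM at D56. The part of adjacent tissue in the shares was not tested.

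Depth moved with age, since the median UMI count of kept cells was 7497 at D0 and 4292.5 at D300. With every cell thinned to 2000 UMIs the shares were 2.64%, 0.815%, 0.410%, 0.192% and 0.0955%, the same order. The level in cells that should lack the rule genes was taken from the endothelial cells: 1.60%, 0.759%, 0.566%, 0.134% and 0.525% of the endothelial cells, from D0 to D300, reached the same 3 UMIs of the rule genes. Median depths of the endothelial cells were 7624, 7091, 6303, 4762.5 and 4046 UMIs. Over all ages the 16 that reached the limit held a median of 10388.5 UMIs against 5610 in all of them, and whether free RNA or doublets gave these UMIs was not tested. The interval of the endothelial level (0.589 to 3.45 at D0) stayed below that of the members at D0 alone. The share at D300 lay at or below this background and is not read as expression.

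**Figure D2:**
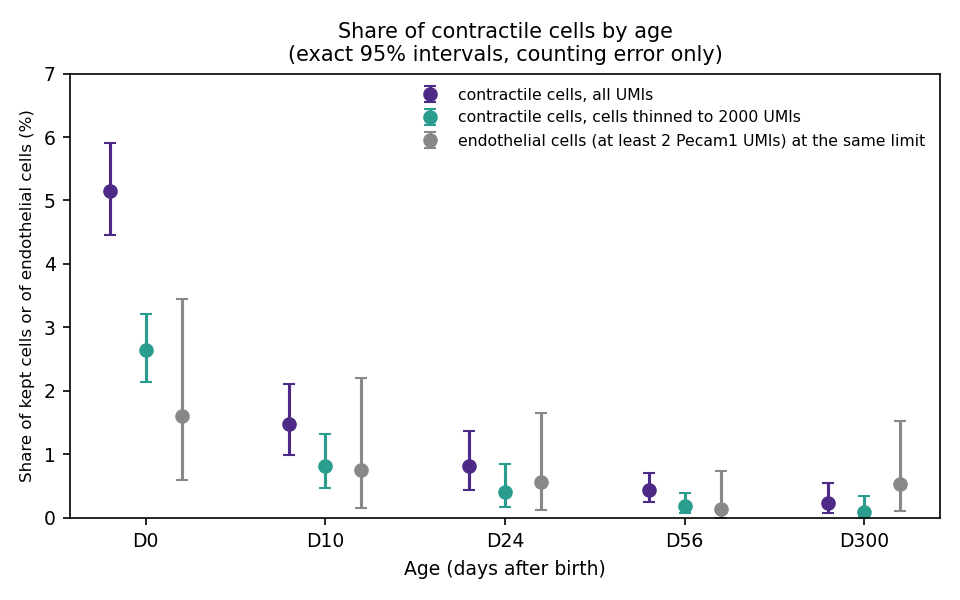
Share of contractile cells among kept cells by age (evenly spaced), as counted and after thinning to 2000 UMIs per cell, with the share of endothelial cells that reached the same limit; bars are exact 95% intervals. The D0 value of 5.14% stands above every other age, and at D300 the endothelial level of 0.525% exceeds the members' 0.236%.

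To compare both classes of cells, counts were summed per age and class, and D300 was left out of the fit because fewer than 10 members remained. Over the other 4 ages (8 sums, edgeR with age as a block), 198 of 9307 genes were higher in contractile cells (2.13%) and 213 lower (2.29%) at an adjusted p below 0.05, with the 6 genes of the rule left out of both counts. Genes coupled to the rule genes are not independent of how the cells were chosen. The Rgs5 cells had no limit on Ccl19 and include reticular cells. With the same limit of 10 Ccl19 UMIs in the Rgs5 cells, 103 genes were higher and 62 lower. A call lost with this limit does not show that the difference was gone. The log2 fold change under the limit is therefore given for named genes whose call was lost, and for some others. Without age as a block 12 genes were called in all, and without D0, D10 or D56 the number was 179, 187 and 210.

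Filament genes were the group with the most genes higher. Outside the rule genes, 19 of 26 tested were higher and 0 lower, with a median log2 fold change of 1.19 against -0.10 over all genes tested. With the Ccl19 limit on the Rgs5 cells the counts were again 19 and 0, and over the other settings 9 to 20 were higher and 0 lower.

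Acta2 stood at 4994, 11264, 5048 and 5773 CPM in contractile cells from D0 to D56. In Rgs5 cells it stood at 530, 384, 559 and 274 CPM. The summed level was higher in contractile cells at each of these ages, and the log2 fold change was 3.78 (SE 0.24, adjusted p 9.55e-14 in edgeR). Tagln reached 3306, 8400, 4877 and 3201 CPM against 379, 494, 995 and 635 CPM in Rgs5 cells, a log2 fold change of 2.83 (SE 0.24). Lmod1 had the largest rise among the genes named here by rule, at 3.87 (SE 0.34), with 110, 253, 32.5 and 139 CPM against 14.3, 6.86, 6.17 and 5.05 CPM. Each of these genes was lowest in other Pecam1-negative cells, where Acta2 stood between 147 and 284 CPM over the 4 ages.

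The motor and its regulators rose as well. Myl9 stood at 2191, 4152, 1211 and 2332 CPM in contractile cells from D0 to D56, and at 530, 640, 325 and 231 CPM in Rgs5 cells. Its log2 fold change was 2.36 (SE 0.20). Tpm2, a tropomyosin that lies along the actin filament, rose by 2.50 and Mylk by 1.95. Myl6, the essential myosin light chain, rose by 1.18. The inhibitor of myosin phosphatase Ppp1r14a (1.39) and the phosphatase subunit Ppp1r12a (1.57) were both higher. Des, the muscle intermediate filament protein, did not pass the test (log2 fold change -0.35, adjusted p 0.491 in edgeR) and stood at 510 CPM in contractile and 558 CPM in Rgs5 cells as a mean over the 4 ages.

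**Figure D3:**
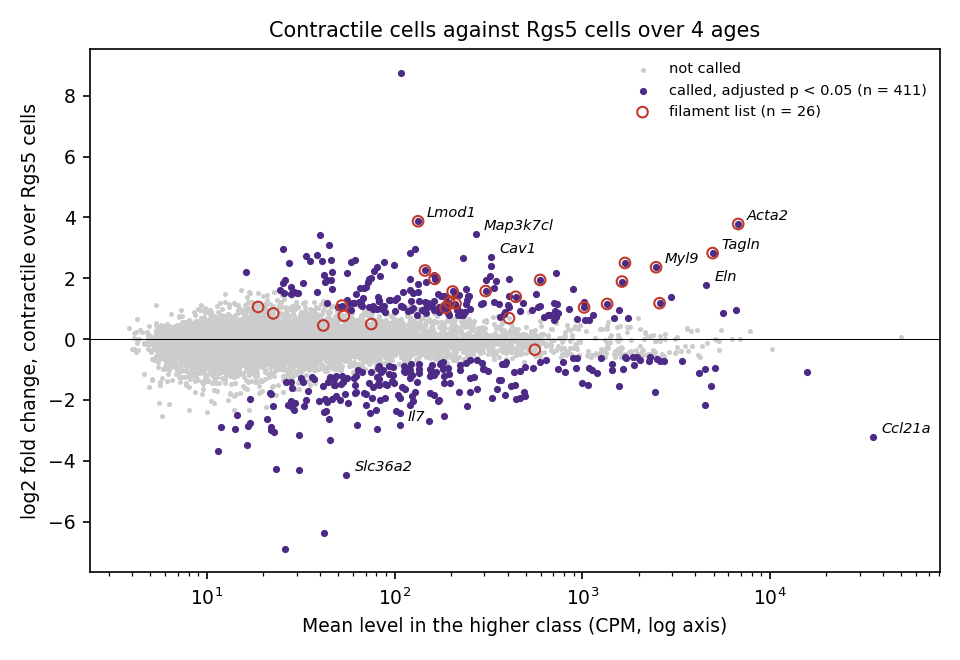
Each point is a gene tested between contractile and Rgs5 cells, with the mean level in the higher class (CPM, log axis) on the x axis and the log2 fold change on the y axis. Filled purple points are the 411 genes called, and red rings mark the 26 filament genes tested, of which 19 were called higher and none lower; Acta2 and Ccl21a are the abundant genes far from 0.

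Genes that feed calcium and signals to the filaments were called less often than the filament genes. Over all genes tested 2.13% were higher. Of 11 genes for calcium handling and channels, 2 were higher, namely Cav1 (log2 fold change 2.69), the coat protein of caveolae, and Ptrf (1.14), which shapes them. Of 7 receptors tested, Npy1r for neuropeptide Y was higher (2.49), from 13, 10, 0 and 4 counts in the members, and this call was lost with the Ccl19 limit (log2 fold change 2.12, adjusted p 0.0972 in edgeR). In the receptor list 12 of 26 genes had 3 counts or fewer in all members, so differences there were not detectable at this depth.

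Among pericyte and mural genes 4 of 20 tested were higher (Gm13889, Parm1, Heyl and Mcam) and 2 lower, with Heyl lost under the Ccl19 limit. Mcam, a surface adhesion protein of mural cells, stood at 66.8, 182, 65.0 and 37.8 CPM against 17.3, 20.1, 4.11 and 7.30 CPM (log2 fold change 2.54). Vtn, the matrix protein vitronectin, gave a log2 fold change of -1.45 (-0.85 with the Ccl19 limit) and Steap4, a metalloreductase, -1.26 (-1.30). The other 14 did not pass the test, and Kcnj8 and Abcc9, subunits of a potassium channel of pericytes, gave log2 fold changes of -0.46 and -0.63 (adjusted p 0.486 and 0.184 in edgeR). Among smooth muscle transcription regulators 4 of 25 were higher (Klf4, Prrx1, Mef2c and Heyl). With the Ccl19 limit on the Rgs5 cells none passed, at log2 fold changes of 0.58, 0.69, 1.06 and 0.59 against 0.78, 0.95, 1.54 and 0.94. In the TGF-beta and Notch list 5 of 26 were higher (Id3, Heyl, Tgfb3, Tgfb2 and Nrarp) and Ltbp4 was lower, with Heyl and Ltbp4 (-0.71 against -0.93) lost under the Ccl19 limit. Tgfb2, a TGF-beta ligand, rose by 2.23 and Nrarp, a feedback regulator of Notch, by 1.88.

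Matrix genes were mixed. Eln, the precursor of elastic fibres, stood at 9493, 7980, 675 and 151 CPM in contractile cells against 5720, 350, 214 and 104 CPM in Rgs5 cells (log2 fold change 1.79, SE 0.37, adjusted p 0.0019 in edgeR). With the Ccl19 limit the log2 fold change was 1.60 and the adjusted p 0.0619 in edgeR. Fbln5 and Loxl2, which assemble and cross-link elastic fibres, were also higher, and Mfap4 and Fbln1 lower, among 16 tested. With the Ccl19 limit none of the 3 higher genes passed, with Fbln5 at 0.72 against 0.83 and Loxl2 at 0.72 against 0.92, and of the lower ones Fbln1 passed. Of 18 basement membrane genes 6 were higher, with the integrin subunits Itgb1, Itga1, Itga7 and Itga8 among them. With the Ccl19 limit 3 of the 6 passed, and Itga7, Itga8 and Col18a1 did not, at log2 fold changes of 1.16, 1.50 and 1.33 against 1.54, 1.83 and 1.25 without it. Of the 13 genes tested in the collagen list none was higher and Col9a2 was lower, a call lost with the Ccl19 limit (-1.05 against -1.79, adjusted p 0.371 in edgeR). The collagen Col18a1, which stands in the basement membrane list, was higher (log2 fold change 1.25). Of 21 proteoglycans and other matrix genes 5 were higher, with Thbs1 (1.12), Timp3 (0.90), Adamts1 (0.79) and Igfbp2 (1.46) the most abundant, and none was lower. Under the Ccl19 limit 2 passed, with Igfbp2 at 2.07, and Thbs1, Timp3 and Adamts1 did not, at 0.83, 0.49 and 0.55.

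Genes of reticular cells were among those lower in contractile cells. Ccl21a stood at 159, 945, 9080 and 15982 CPM in contractile cells and at 1734, 23188, 41778 and 74985 CPM in Rgs5 cells, a log2 fold change of -3.22 (-1.80 with the Ccl19 limit). Il7, a survival factor for T cells, gave -2.82 with 8, 3, 1 and 0 counts in the members, and -1.88 with the Ccl19 limit. Of 20 chemokine, cytokine and adhesion genes 6 were lower, namely Ccl21a, Cxcl12, Il33, Madcam1, Tnfsf13b and Il7. Of these, Ccl21a, Il7 and Madcam1 (-1.27 against -1.94) passed with the Ccl19 limit. Cxcl12 (-0.91 against -0.97), Il33 (-1.09 against -1.74) and Tnfsf13b (-1.70 against -2.15) did not pass. Of 7 reticular markers 5 were lower, 3 with the Ccl19 limit. Since the rule held Ccl19 below 10 UMIs in members alone, these genes are tied to the choice of cells. The reticular list, Ccl19 included, summed to 1308, 2106, 16592 and 22146 CPM in members against 3692, 29103, 48501 and 83113 CPM in Rgs5 cells, and its part in the other differences was not tested.

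The remaining named genes came from outside the lists. Map3k7cl rose by 3.44, Lmcd1, a LIM domain protein, by 2.97, Ramp1, a subunit of the receptor for calcitonin gene-related peptide, by 2.82, Map1b, which binds microtubules, by 2.67 and the nuclear receptor Nr4a2 by 2.54. Slc36a2, an amino acid transporter, had 0 counts in the members at D0, D10 and D56 and 2 at D24. At the floor of 3 counts per sum it was at least 6.64-fold lower than in Rgs5 cells at D0, at least 3.91-fold at D10 and at least 2.03-fold at D56. Lrat, which stores vitamin A, gave a log2 fold change of -2.96, Cilp -2.81, Gm2564 -2.70, Msc -2.54, Serpina10 -2.42, Bst1 -2.36 and Dram1 -2.32. Under the Ccl19 limit Lrat gave -2.13, Cilp -2.70 and Msc -1.46, which passed, and Serpina10 gave -1.15, Bst1 -0.82 and Dram1 -1.29, which did not (adjusted p 0.289, 0.654 and 0.0801 in edgeR). Slc36a2 and Gm2564 had too few counts to be tested with the limit. Without it Rgs5 cells held 21, 121, 35 and 137 counts of Slc36a2 from D0 to D56. The part of Rgs5 cells high in Ccl19 in these falls was not tested. The 10 rises named by rule all passed with the limit. At D300, left out of the fit for its few members, some genes named by rule went the other way. These were Lmcd1 (36.7 CPM in members against 50.1 in Rgs5 cells), Nr4a2 (0 against 40.6) and Serpina10 (220 against 143). Lists for cycling cells (16 tested) and oxidative phosphorylation (18) had no gene called in either direction. Of 16 imprinted and fetal growth genes Mest was lower, of 8 CD34 stromal markers Clec3b and Pi16, and of 4 adjacent fibroblast markers Mfap4. Mest and Pi16 were lower at 2 of the 4 ages and higher at the other 2. The calls of Mest and Mfap4 were lost with the Ccl19 limit, where their log2 fold changes were -1.45 and -0.83 against -1.50 and -1.11. Of 21 immediate early and heat shock genes 4 were higher (Btg2, Fosb, Atf3 and Nr4a1), and 1 with the Ccl19 limit, Nr4a1. Btg2, Fosb and Atf3 then gave log2 fold changes of 0.37, 0.46 and 0.66.

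**Figure D4:**
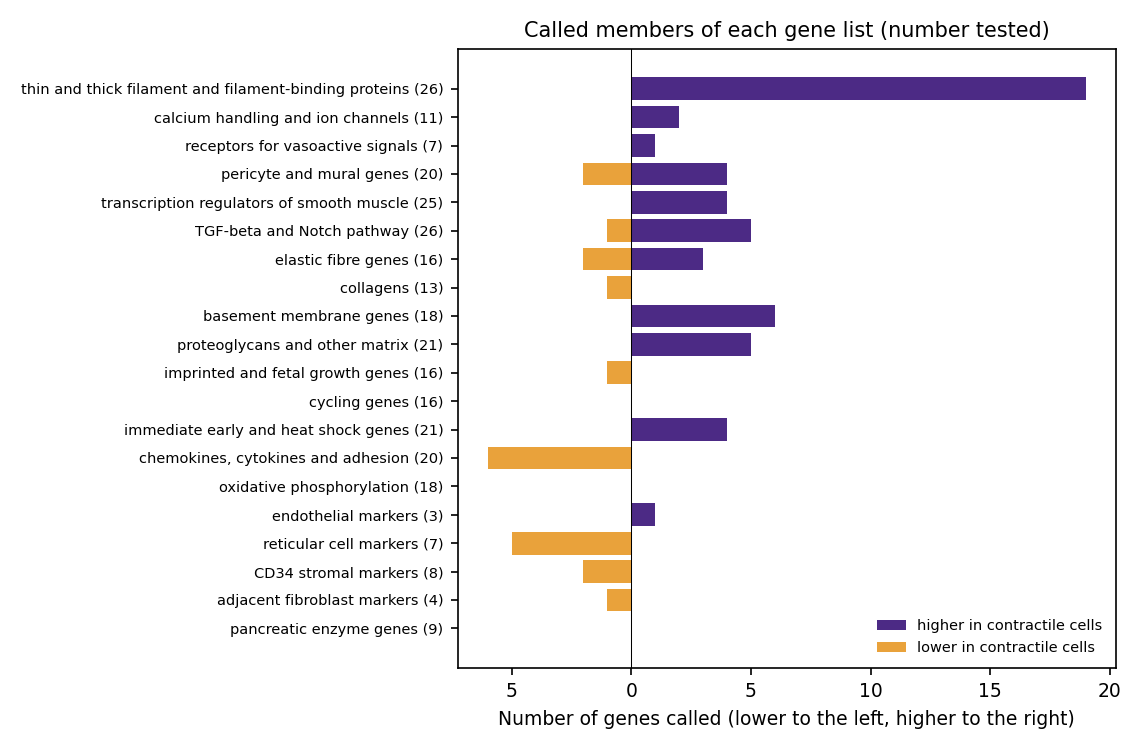
Number of genes in each list shown that were called higher (right) or lower (left) in contractile cells than in Rgs5 cells, with the number tested in parentheses. The filament list holds 19 higher and 0 lower, and the chemokine list 0 higher and 6 lower (3 lower with the Ccl19 limit on Rgs5 cells).

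Beside the reticular genes, markers of other cells were counted in the members. The 12 endothelial markers summed to 123, 217, 146 and 126 CPM from D0 to D56, and 1 of 3 tested, Esam, was higher than in Rgs5 cells, though not with the Ccl19 limit (log2 fold change 0.84 against 1.23). The 9 blood cell markers summed to 25.8, 5.05, 423 and 176 CPM, against 92.7, 238, 280 and 423 CPM in Rgs5 cells. Cd74, the invariant chain of MHC class II, was the blood cell marker tested and made up most of these sums at D24 and D56. It was lower in the members (log2 fold change -1.73, 3 of 4 ages), but not with the Ccl19 limit (-0.28). Pancreatic enzyme genes summed to 910 CPM at D0 and 1073 at D24, with 957 and 1108 CPM in Rgs5 cells. Other Pecam1-negative cells held 5652 and 1024 CPM. Actc1, the actin of heart muscle, was the striated marker called, with 68 counts in 14 cells at D0, 52 in 7 cells at D10, 0 at D24 and 10 in 3 cells at D56. Rgs5 cells held 0, 0, 0 and 1 counts, so that Actc1 was at least 23.9-fold higher in contractile cells at D0 and at least 179-fold at D10.

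Across age Acta2 and Tagln varied over a narrower range than Eln. Against D56, Acta2 had log2 ratios of -0.21 at D0 (exact interval -0.35 to -0.07), 0.96 at D10 (0.82 to 1.11), -0.19 at D24 and 0.06 at D300, so that D10 was highest. In members with fewer than 2 Rgs5 UMIs the D0 and D24 ratios were 0.11 and 0.12. Tagln had 0.05, 1.39, 0.61 and 0.28. These ratios also rest on few cells, as 173 of 458 Acta2 counts and 85 of 254 Tagln counts at D56 came from 1 cell, and at D300 all 164 Acta2 and 106 Tagln counts came from 2 of 5 cells. Eln had 5.97 at D0 (5.17 to 6.92), 5.72 at D10, 2.16 at D24 and -0.46 at D300, and the last rests on 3 counts. At D24, 54 of the 83 Eln counts came from 1 cell. In Rgs5 cells Eln stood at 5720 CPM at D0 and 350 at D10, while members held 7980 CPM at D10.

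**Figure D5:**
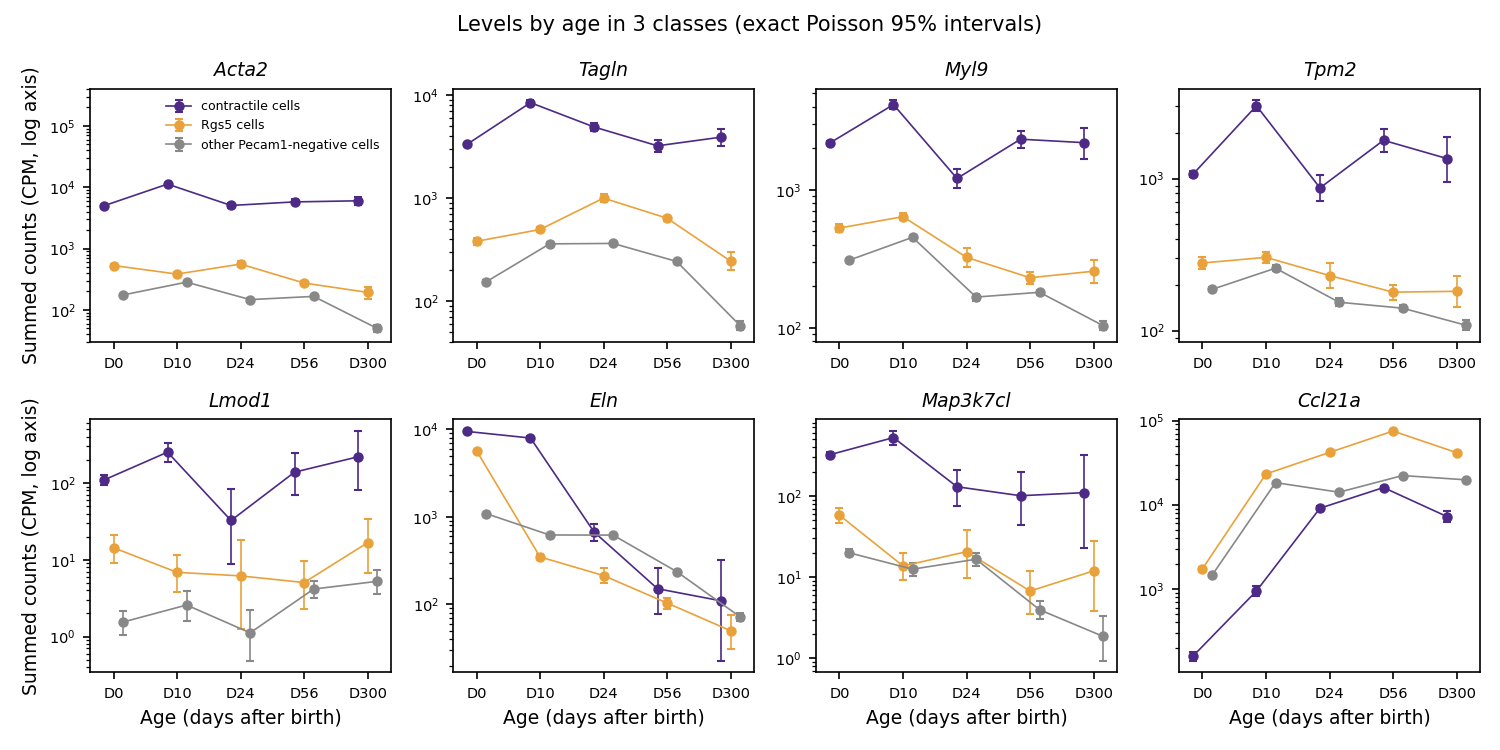
Summed counts in CPM (log axes) of 8 genes at each age (evenly spaced) in contractile cells, Rgs5 cells and other Pecam1-negative cells, with exact Poisson 95% intervals. Acta2 in contractile cells lies between 4994 and 11264 CPM from D0 to D56, while Eln goes from 9493 CPM at D0 to 151 at D56; the D300 points sum 5 cells, of which 3 held no Acta2.

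Genes with the largest rises and falls against D56 were picked by these ratios, so they are given as a description. Mfap4, a microfibril protein, stood at 2272, 460, 106 and 12.6 CPM in the members from D0 to D56, and also fell in Rgs5 cells, from 3558 to 61.7 CPM. Itm2a (log2 ratio 6.41 at D0) and the noncoding RNA Meg3 (4.85 at D10) were likewise higher early. Inmt, a methyltransferase, was lower at D0 (-8.16) and D10 (-4.42), C4b, a complement component, at D0 (-6.21), and Il6, a cytokine, at D10 (-5.58). In Rgs5 cells Inmt stood at 6.58 CPM at D0 and 475 at D56, and C4b at 67.6 and 771 CPM. Il6 stood there at 68.1 CPM at D10 and 613 at D56. In the members at D56, 42 of 86 Inmt, 15 of 37 C4b and 58 of 115 Il6 counts came from 1 cell each. Ccl21a was lower at D0 (-6.65), but 935 of its 1268 counts at D56 came from 1 cell. Gm8797 had log2 ratios of -5.95 at D10, -4.68 at D24 and -3.50 at D300, and Rgs5 cells and other cells showed the same order.

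The D24 and D300 ratios rest on few cells. Cxcl13, a B cell chemokine, had a log2 ratio of 6.50 at D24, and all 140 counts came from 1 of 14 cells. Surf4 and Grem1 gave 4.45 each there, from 34 counts against 1, and Irf1 (-5.39) and Cdkn1a (-4.72) were lowest. At D300, Rgs16 gave 4.75 with 34 of 37 counts in 1 cell, Rasl11a 2.74 and Lpl 2.32 with 34 of 43 counts in 1 cell. Aspn (-3.95) and Cryab (-3.84) stood at 1 and 3 counts at D300.

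With D0, D10 and D24 taken as early and D56 and D300 as adult, 1 of 3307 genes (0.0302%) was called, and 355 had an unadjusted p below 0.05. Tnfaip6, a hyaluronan-binding protein induced in inflammation, stood at 132, 157 and 154 CPM at the early ages and at 1349 and 990 CPM at D56 and D300. The groups did not overlap, and the log2 fold change of early over adult was -3.24 (SE 0.35, adjusted p 0.0386 in edgeR). At D24, D56 and D300, 12 of its 19, 52 of its 107 and 17 of its 27 counts came from 1 cell each, and the call was lost without D0, D10, D56 or D300 (adjusted p 0.0515, 0.0754, 0.201 and 0.106 in edgeR). DESeq2 called 71 genes, and without D24 edgeR called 128. Whether the early-to-adult change differed between contractile and Rgs5 cells was tested with D56 alone as the adult age, since D300 was left out of that fit, and none of the 9307 genes passed in edgeR. With D300 and its 5 members kept, 17 genes were called. The lack of calls in the test without D300 does not show that the changes were alike. In that test 405 genes had an unadjusted p below 0.05, and DESeq2 called 0. The reticular list, which moved with age in the members, summed to 1308 CPM at D0 and 16944 at D300, and its part in the age differences was not tested. The immediate early and heat shock list summed to 30392, 33937, 36313, 68314 and 80283 CPM in the members from D0 to D300 and to 28227, 18884, 34272, 48091 and 63197 CPM in Rgs5 cells, and its part was not tested.

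Rgs5 was present in part of the members. At least 2 Rgs5 UMIs were found in 64 of 191 members at D0 (33.5%), in 16 of 29 members at D10, in 6 of 14 at D24, in 2 of 16 members at D56 and in none of 5 at D300. At D0 the 64 cells with Rgs5 held Eln at 16826 CPM and the 127 others at 6192 CPM. Fbln5 stood at 1824 against 345 CPM and Notch3, the Notch receptor of mural cells, at 130 against 77.7 CPM. The imprinted growth genes went the other way, with Dlk1 at 597 against 2566 CPM and Cdkn1c, an inhibitor of the cell cycle, at 227 against 918 CPM. Acta2 stood at 6523 against 4306 CPM, and Actg2 at 1035 against 1225 CPM. At D10, with 16 cells with Rgs5 and 13 without, these differences were mostly not seen: Eln stood at 7985 against 7975 CPM, Fbln5 at 431 against 495 CPM, Notch3 at 193 against 169 CPM, Acta2 at 10644 against 12025 CPM, and Dlk1 had 4 against 0 counts. Actg2 was again lower in the cells with Rgs5, at 788 against 1935 CPM. Each age is 1 sample, so these values are given without a test.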

How the data were processed

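Raw UMI counts per gene and cell were used as deposited by the authors, in 1 matrix of 27998 genes and 17692 cells. The submitters' processing notes name Cell Ranger 2.0.0, STAR, Seurat 2.3.3 and mm10. Limits of 1000 to 4600 genes per cell and 4.5% mitochondrial UMIs, as in the study, were applied (10116247 to 29430992 UMIs per age). The number of cells kept was lower than the study gives for these limits, and the reason was not tested. Doublets were scored with Scrublet in scanpy 1.11.5 and none was removed; leaving out the highest 5% of scores was an alternative. Cell names hold running numbers, so barcodes shared between libraries could not be counted. According to the study, the D56 libraries had been published before.

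Counts were summed per age and class and tested in edgeR 4.0.16 (TMM, quasi-likelihood F test, Benjamini-Hochberg adjustment), on genes with at least 10 counts in 3 or more sums (2 for early against adult). The class fit used sums of at least 10 cells, which left out D300 although its sums had been planned to enter. Cells of both classes at one age come from the same sample, and each age is 1 sample. With age as a block, p-values of the class fit measure how far the difference between classes varied between ages. Those of early against adult measure the spread between the ages of each side. DESeq2 1.42.0 was an alternative. Levels at single ages are CPM with exact Poisson 95% intervals, shares have exact Clopper-Pearson intervals, and a floor of 3 counts was used.

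Named genes were the 10 largest rises and 10 largest falls between classes among called genes with at least 50 CPM in the higher class. These had to keep the same direction in every age fitted, from D0 to D56. Further named were the genes called early against adult and list members of the highest level. The 3 largest rises and falls of each age against D56 with at least 20 counts were named as well. Some list members and the genes compared within the members at D0 were chosen after their values were seen. Members and lists were chosen with earlier results of these data known. Promoters came from RefSeq on GRCm38.p6. The edgeR fits were tested on simulated data. The result of 1 gene list is not reported here.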

Additional observations from a re-analysis of the deposited data

How the results depend on the processing

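The shares kept their order of ages in every alternative. With at least 2 UMIs of the rule genes they were 7.03%, 2.34%, 1.51%, 1.36% and 0.898% from D0 to D300, and with at least 5 UMIs 3.77%, 0.966%, 0.465%, 0.217% and 0.0473%. Thinned to 2000 UMIs they were 2.64%, 0.815%, 0.410%, 0.192% and 0.0955%. The number of genes called between classes (411) was 190 with DESeq2, 138 with at least 5 UMIs (D0 and D10 alone), 12 without age as a block, and 165 with the Ccl19 limit on Rgs5 cells, which was added after the data were seen. Leaving out single ages gave 179 to 487 genes (179 without D0, 187 without D10, 210 without D56). For early against adult (1 gene) it was 71 with DESeq2, 4 with its size factors in edgeR, 139 with no filter on low counts, 0 with at least 5 UMIs, 0 with no filter on cells, 6 without the highest doublet scores, 10 in members with fewer than 2 Rgs5 UMIs and 32 as a slope over age. Leaving out single ages gave 0 to 128 (128 without D24). For the difference of changes (0 genes) it was 8 with no filter on low counts, 17 with D300 kept (added after the data were seen), and 3 to 15 without D10 or D24; no fit was possible without D56 or with at least 5 UMIs. The cause of these changes was not tested. No named gene changed sign between the classes. Early over adult, where neither gene was called, Acta2 turned to -0.49 without D10, -0.030 without D300, -0.48 with at least 5 UMIs and -0.064 without the highest doublet scores, and Tagln to -0.062 without D10 and -0.096 with at least 5 UMIs. Over single ages left out they ranged up to 0.23 and 0.65. The Acta2 ratios of D0 and D24 to D56 turned to 0.11 and 0.12 in members with fewer than 2 Rgs5 UMIs. At D24, D56 and D300 the 14, 16 and 5 members limit what can be seen. No paired analysis was possible because the columns carry no replicate number to pair by; the block for age in the class fit pairs both classes within an age.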

Other observations

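Olfactory receptor transcripts appeared in the contractile cells, and both genes named here were chosen after their values were seen. Olfr78 had 77 counts in 38 of the 191 members at D0 and 7 counts at D10, where the Rgs5 cells held 1 and 2 counts. At D0 this was a ratio of 81.1 between the classes (exact 95% interval 14.1 to 3246). Olfr558 had 41, 34 and 6 counts in the members at D0, D10 and D24 and 10, 33 and 3 counts in Rgs5 cells, which gave ratios of 4.32, 10.6 and 7.91. The interval at D24 was 1.69 to 48.9. Neither gene had a count in the members at D56.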
